A study of Mus musculus with 6 samples.

Results

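Cytosolic proteins are cut into peptides, carried into the endoplasmic reticulum and loaded onto MHC class I molecules, and 10 genes of this route are described here in CT26 cells, a mouse colon carcinoma line. They are the inducible proteasome subunit genes Psmb8, Psmb9 and Psmb10, the proteasome activator gene Psme1, the peptidase gene Erap1, the peptide transporter genes Tap1 and Tap2, the loading-complex genes Tapbp and Tapbpl, and Nlrc5, which encodes a regulator of class I genes. The 10 genes were chosen for their roles, with earlier results of these data known, and matched by symbol among 53801 genes listed. The counts called among them therefore do not test them as a set. All 10 passed the filter on low counts in every comparison.

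The RNA-seq data compared lines that resist immune checkpoint blockade (ICB) with the line they came from. There were 6 libraries, with replicates A and B of each of 3 lines. The parental line was bulk CT26 cells that had been barcoded, grown as tumours in Balb/c mice and recovered by puromycin selection. Line B04 and line B64 were each grown from a single cell of such tumours, so each is 1 clone. They carry different barcodes that had been enriched under anti-PD-1 and anti-CTLA-4. None of the 6 RNA samples was labelled as treated with an antibody, and engraftment, barcoding and puromycin selection are shared by all 3 lines. The study's discussion states that the clones were isolated after ICB treatment. It holds that their expression changes might predate that treatment or have been induced by it, which was not tested here. The sample labels call the samples tumours and call both clones resistant to anti-PD-1, whereas the study's methods describe cultured lines.

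Library totals ranged from 19409204 to 23472012 expected counts. Of 12 leukocyte markers, 11 stayed under 1 TPM (RSEM's transcript level scaled by length) in every library, and Ptprc, the pan-leukocyte surface marker, did not exceed 0.01 TPM, with Cd3e, Tyrobp and Nkg7 at 0. The exception was Cd68, a lysosomal gene, and the summed level of the list was 10.6 to 12.2 TPM in the parental and B04 libraries against 36.7 to 40.4 TPM in the B64 libraries. Endothelial markers summed to at most 0.1 TPM and erythroid markers to at most 2.45 TPM. The epithelial markers Epcam, Cdh1, Krt8 and Krt19 were all under 1 TPM, which departs from the labelled carcinoma, while Krt18 and Krt20 were detected. Their list summed to 45.7 and 48.2 TPM in the B64 libraries against 21.5 to 25.4 TPM in the others, with Krt20 at 24.4 and 25.2 TPM in B64 against 9.01 to 9.62 TPM. The 4 mesenchymal markers summed to 3701 and 4042 TPM in B04 against 2299 to 2775 TPM in the others. The part of these marker levels in the results was not tested. In bulk RNA, a larger share of expressing cells and more RNA per cell cannot be told apart. The labels do not say whether replicates were separate cultures, so p-values measure only the spread between these libraries. Library fragments fell into 2 classes, taken as the median of RSEM length minus effective length. This median was 271.8 to 277.3 bases in the parental libraries and B04 replicate A, and 220.8 to 246.2 bases in B04 replicate B and the B64 libraries. No B64 library had long fragments and no parental library had short ones, so B64 and parental differ in fragment class as well as in line.

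The proteasome degrades proteins in a barrel whose inner rings hold 3 kinds of catalytic subunit, and interferon induces an alternative form of each, which together make the immunoproteasome. Its products enter the endoplasmic reticulum through the TAP transporter, are trimmed by aminopeptidases, and are fitted to class I molecules by a loading complex with tapasin and chaperones. Many of these genes lie within the major histocompatibility complex and respond to interferon through IRF1 and NLRC5, and their loss is a known route by which tumour cells escape cytotoxic T cells.

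The genes were placed on GRCm38 by GENCODE M21. Tap1 (chr17:34187553-34197225), Psmb8 (chr17:34197721-34201454) and Tap2 (chr17:34203527-34216321) lie on the plus strand and Psmb9 (chr17:34181987-34187764) on the minus strand, in 34.3 kb of the mouse major histocompatibility complex. Tapbp (chr17:33915899-33929292, plus strand) ends 252.7 kb before Psmb9. Tapbpl (chr6:125223933-125231860, minus strand), Psmb10 (chr8:105935735-105938444, minus strand), Nlrc5 (chr8:94434356-94527272, plus strand), Psme1 (chr14:55578123-55581529, plus strand) and Erap1 (chr13:74639568-74693201, plus strand) lie elsewhere. Tap1 and Psmb9 point away from each other and share the stretch between their starts, which is printed here because both genes rose in both clones. The RefSeq starts are 225 bases apart, whereas in GENCODE M21 the longest transcripts of the pair overlap by 212 bases. The promoter of Psmb8 is shown with it because Psmb8 and its neighbour Psmb9 had the largest folds of the 10 genes in both clones. Both sequences are from RefSeq (GRCm38.p6), on the plus strand. The RefSeq start of Psmb8 lies inside its GENCODE M21 span, which begins at 34197721. The 250 bases printed before that RefSeq start fall within the span. Capitals mark a match to the interferon-gamma activation site (GAS) motif TTCNNNGAA, searched on both strands in promoter windows of 250 bases before to 50 bases after the start.
Tap1 to Psmb9, between the starts (chr17:34187331-34187555): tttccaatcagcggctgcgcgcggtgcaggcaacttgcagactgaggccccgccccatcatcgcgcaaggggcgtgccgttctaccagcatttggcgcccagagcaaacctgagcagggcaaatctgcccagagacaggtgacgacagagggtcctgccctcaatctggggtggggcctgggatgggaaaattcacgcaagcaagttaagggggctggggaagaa
Psmb8, 250 bases before the start (chr17:34197945-34198194): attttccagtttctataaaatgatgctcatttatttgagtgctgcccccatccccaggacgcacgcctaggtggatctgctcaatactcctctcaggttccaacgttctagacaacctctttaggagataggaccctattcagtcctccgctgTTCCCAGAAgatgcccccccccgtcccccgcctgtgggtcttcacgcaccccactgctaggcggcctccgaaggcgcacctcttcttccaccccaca

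The promoter table held 7 of the 10 genes, without Tap2, Tapbpl and Nlrc5. The GAS match in the Psmb8 promoter lies at positions -97 to -89 from the RefSeq start. By GENCODE M21 these positions are inside the gene. Psmb8 was the only gene among the 7 with this motif, which 8.3% of 32851 mouse promoters hold. The core letters of an IRF element, AANNGAAA, were found in 2 of the 7, Erap1 and Psme1, against 23.9% of all promoters. An NF-kappaB motif was found in 0 of the 7, against 8.46%. The stretch between Tap1 and Psmb9 held none of these letters, which says nothing of whether a factor binds there.

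Set against the parental line, most of the 10 genes were higher in both clones. In line B04, 7 of the 10 rose and 0 fell (DESeq2, Benjamini-Hochberg adjusted p under 0.05), where 11.5% of the 12935 genes tested rose and 13.3% fell. In line B64, 9 of the 10 rose and 0 fell, where 9.11% rose and 7.65% fell. With DESeq2, 0 were lower at an unadjusted p under 0.05 either. With edgeR at the adjusted threshold 8 rose in B04 and 9 in B64, with 0 lower in both, and at an unadjusted p under 0.05 edgeR had 1 lower in B04 and 0 in B64. In either direction, edgeR called 34.6% of all genes tested in B04 and 24.6% in B64, against 24.7% and 16.8% with DESeq2. The median log2 fold change of the 10 genes was 0.48 in B04 and 0.61 in B64, and that of all genes tested was 0.00 in both. The 2 clone libraries and the 2 parental libraries did not overlap for any of the 10 genes in either comparison, which also held for 65.4% of all genes tested in B04 and for 61.7% in B64. Both comparisons use the same 2 parental libraries, so they are not independent of each other. The count in B64 depended on 1 library and on fragment class: it was 5 without B64 replicate A and 2, Tap1 and Tapbp, with the fragment class as a term of the fit. In B04 it was 5 with that term and 5 to 7 with 1 library left out. The part of fragment length in these differences was not tested further, because no B64 library shares the class of the parental libraries.

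**Figure D1:**
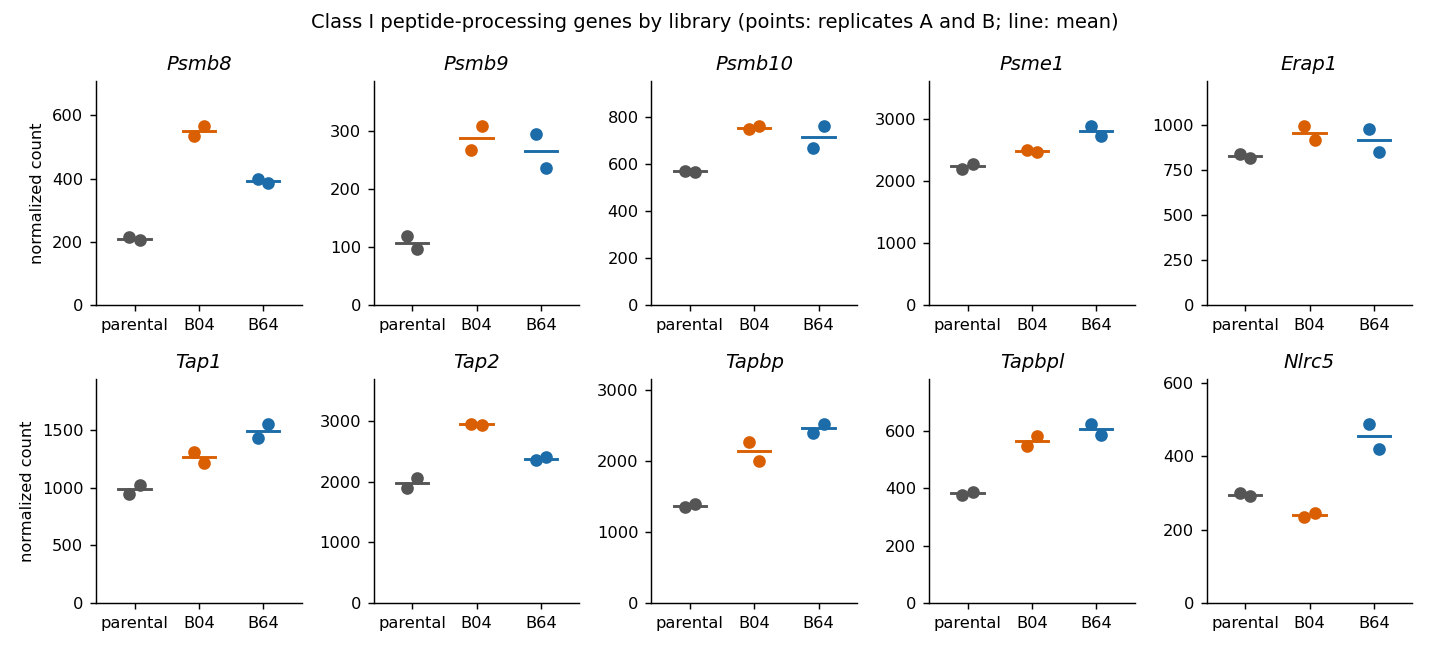
Normalized counts (y axis, from 0, own scale for each gene) of the 10 genes in the parental, B04 and B64 lines (x axis). Points are replicates A and B and lines are means. All 10 genes had clone libraries that did not overlap the parental ones (65.4% of all genes tested in B04 and 61.7% in B64), and on this scale, though not by TPM, Nlrc5 was the only gene whose B04 libraries lay below them.

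The immunoproteasome subunits gave the largest folds. Psmb8 encodes the inducible subunit that takes the place of the chymotrypsin-like subunit Psmb5. Its normalized count (the expected count divided by the size factor of the library) in replicates A and B was 216 and 205 for the parental pair of libraries, 534 and 567 for the B04 pair and 399.8 and 387 for the B64 pair. The 3 lines did not overlap, and B04 stood highest. Psmb8 rose in B04 by a log2 fold change of 1.39 (SE 0.16), a 2.62-fold increase with a 95% interval of 2.11 to 3.24 (adjusted p = 1.19e-16, n = 2 libraries a line, DESeq2). In B64 it rose 1.87-fold, with a log2 interval of 0.59 to 1.22 (adjusted p = 6.73e-07, DESeq2).

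Psmb9 encodes the inducible counterpart of the caspase-like subunit Psmb6. Psmb9 had normalized counts of 119 and 96.3 for the parental pair of libraries, 268 and 309 for the B04 pair and 296 and 237 for the B64 pair. Both clones lay above the parental line, and the clones overlapped each other. Psmb9 rose 2.68-fold in B04, with an interval of 1.98 to 3.63 (adjusted p = 5.66e-09, DESeq2), and 2.47-fold in B64, with an interval of 1.82 to 3.35 (adjusted p = 2.54e-07, DESeq2). RSEM gave Psmb9 103 to 304 expected counts a library, and its first bases overlap those of Tap1 on the other strand.

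Psmb10 encodes the inducible counterpart of the trypsin-like subunit Psmb7 and changed less. In replicates A and B its normalized counts were 569.5 and 566 for the parental pair of libraries, 746 and 760.4 for the B04 pair and 666 and 760.1 for the B64 pair. All 4 clone libraries were above the parental line, and B64 replicate B reached the level of B04. The rise in B04 was 1.33-fold, with an interval of 1.12 to 1.57 (adjusted p = 0.00585, DESeq2), and it missed the threshold when any of the 4 libraries compared was left out (adjusted p = 0.0862 to 0.111). With the effective length as an offset the log2 fold change in B04 was 0.17 (adjusted p = 0.45), against 0.41. In B64 Psmb10 rose 1.26-fold and lay close to the threshold (adjusted p = 0.0482, DESeq2). Leaving out any of the 6 libraries removed the call (adjusted p = 0.115 to 0.55), and with the effective length as an offset the log2 fold change was 0.05.

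Because TPM is scaled by length, the inducible and constitutive subunit of each pair could be set side by side. Psmb8 made up 3.53% and 3.35% of the summed TPM of Psmb8 and Psmb5 for the parental pair of libraries, 9.58% and 9.61% for the B04 pair and 5.98% and 5.93% for the B64 pair. The B04 values came from libraries of different fragment class, and the part of fragment class in the shares of the 3 pairs was not tested. Psmb9 made up 1.75% and 1.31% of the TPM of Psmb9 and Psmb6 for the parental pair of libraries, 4.26% and 4.69% for the B04 pair and 3.73% and 3.07% for the B64 pair. For both pairs every clone library was above the parental ones, and B04 was above B64. Psmb10 made up 19.77% and 19.32% of the TPM of Psmb10 and Psmb7 for the parental pair of libraries, 23.75% and 23.09% for the B04 pair and 19.29% and 20.75% for the B64 pair, so that B64 overlapped the parental line in this pair. The constitutive subunit thus remained the more abundant transcript of each pair in all 6 libraries.

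**Figure D2:**
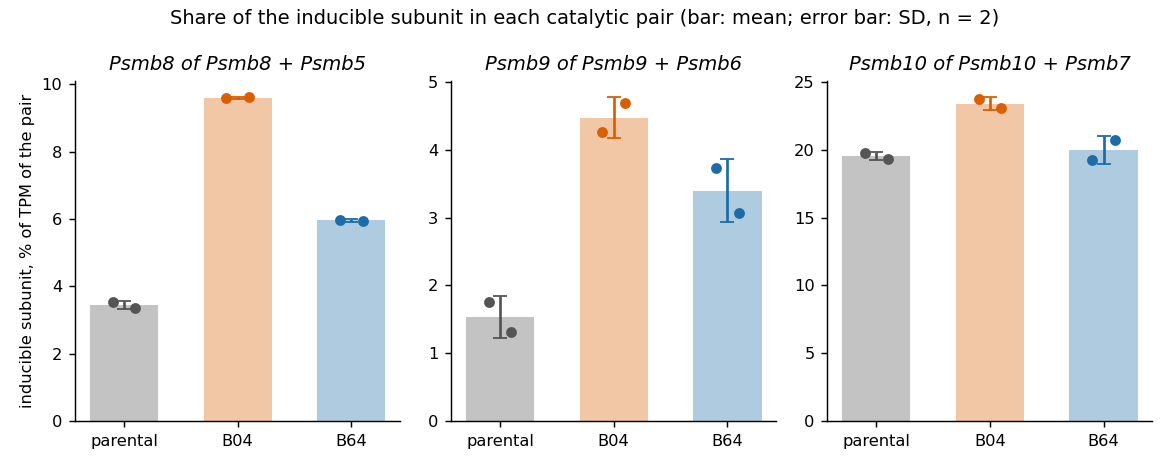
Share of the inducible subunit in the summed TPM of each catalytic pair (y axis, percent, from 0) in the 3 lines (x axis). Bars are means, error bars SD (n = 2) and points replicates A and B. The mean share of Psmb8 was 3.44% in the parental line, 9.60% in B04 and 5.96% in B64, while that of Psmb10 in B64 (20.02%) lay near the parental 19.54%.

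Psmb5, Psmb6 and Psmb7 themselves did not pass the test against the parental line in either clone. Their log2 fold changes were -0.16 to -0.11 in B04 and 0.06 to 0.20 in B64, and edgeR also called 0 of the 3 in either comparison. At an unadjusted p under 0.05, 1 was lower in B04 and 2 were higher in B64. All 3 were higher in B64 than in B04, where 13.6% of all genes tested were higher. The log2 differences were 0.36 (SE 0.08) for Psmb5, 0.28 (SE 0.08) for Psmb6 and 0.18 (SE 0.07) for Psmb7 (adjusted p = 6.90e-05, 0.00187 and 0.0287, DESeq2). Among the 12 other genes of the proteasome core, taken with its assembly factor Pomp, 3 fell and 0 rose in B04, led by Psmb4 (-0.25, SE 0.07) and Psma2 (-0.25, SE 0.08), where 13.3% of all genes tested fell. In B64, 1 of the 12 rose, Psmb1 (0.19, SE 0.06), and 0 fell, near the 9.11% and 7.65% of all genes tested. At an unadjusted p under 0.05 the counts were 5 lower in B04 and 1 higher in B64, and edgeR gave the same adjusted counts as DESeq2.

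Psme1 encodes the alpha subunit of the PA28 cap, which opens the proteasome barrel to peptide release. Normalized counts of Psme1 were 2203 and 2274 for the parental pair of libraries, 2502 and 2473 for the B04 pair and 2893 and 2731 for the B64 pair, so the 3 lines lay in separate ranges. It rose 1.26-fold in B64, with an interval of 1.14 to 1.39 (adjusted p = 1.42e-04, DESeq2), and this call was lost without B64 replicate A (adjusted p = 0.0616). In B04 the fold was 1.11, with an interval of 1.01 to 1.23, which did not pass the test (adjusted p = 0.123, DESeq2). Psme2, which encodes the beta subunit of the same cap, rose in both clones, by 0.26 (SE 0.07) in B04 and by 0.37 (SE 0.07) in B64 on the log2 scale (adjusted p = 0.00284 and 1.31e-05, DESeq2). Of 3 other activator genes, 1 rose and 1 fell in B04, and 1 rose and 0 fell in B64, with the same counts by edgeR. Of all genes tested, 11.5% rose and 13.3% fell in B04, and 9.11% rose and 7.65% fell in B64 (DESeq2). Psme3, the subunit of a different cap found in the nucleus, fell in B04 by 0.23 on the log2 scale (SE 0.07, adjusted p = 0.00718).

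**Figure D3:**
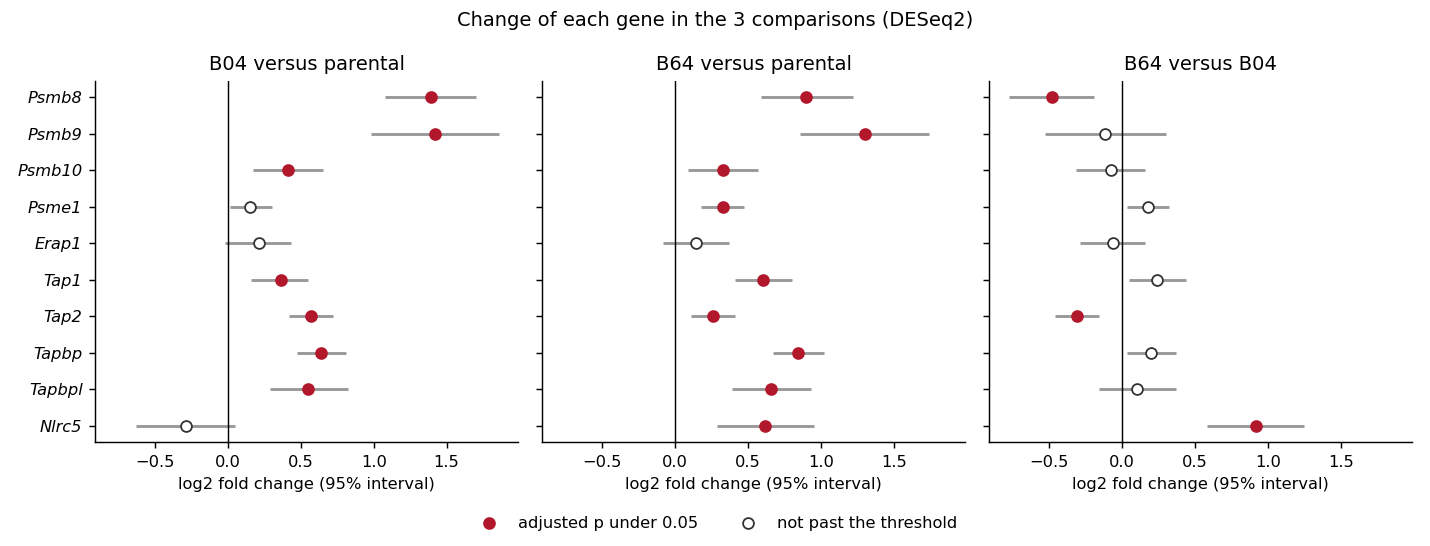
Log2 fold change of each gene (x axis) with its 95% interval in the 3 comparisons, ordered by role from proteasome to regulator. Filled points passed the adjusted threshold. Psmb8 and Psmb9 stand farthest from 0 in B04 (1.39 and 1.42), and Nlrc5 has the largest difference between the clones (0.92).

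Tap1 and Tap2 encode the 2 chains of the transporter that moves peptides into the endoplasmic reticulum. The normalized count of Tap1 was 946 and 1027 for the parental pair of libraries, 1312 and 1216 for the B04 pair and 1435 and 1556 for the B64 pair, with B64 highest. Tap1 rose 1.52-fold in B64, with an interval of 1.32 to 1.74 (adjusted p = 6.52e-08, DESeq2). The rise in B04 was 1.28-fold, with an interval of 1.12 to 1.47 (adjusted p = 0.00241, DESeq2). The call in B04 was lost without parental replicate A or without B04 replicate A, where the log2 fold change was 0.30 against 0.36 (adjusted p = 0.116 and 0.129).

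For Tap2 the higher mean was that of B04. Tap2 had normalized counts of 1906 and 2062 for the parental pair of libraries, 2963 and 2938 for the B04 pair and 2356 and 2406 for the B64 pair. Tap2 rose 1.49-fold in B04, with an interval of 1.34 to 1.65 (adjusted p = 1.39e-12, DESeq2), and 1.20-fold in B64, with an interval of 1.08 to 1.33 (adjusted p = 0.00558, DESeq2). The call in B64 was lost without parental replicate A, B64 replicate A or B64 replicate B, where the log2 fold change was 0.20, 0.28 and 0.25 against 0.26 (adjusted p = 0.0939 to 0.222). Between the clones, the difference in Tap2 passed the test and that in Tap1, in the other direction, did not.

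Tapbp encodes tapasin, which holds class I molecules next to the transporter until a peptide binds. Normalized counts of Tapbp were 1345 and 1394 for the parental pair of libraries, 2271 and 2001 for the B04 pair and 2389.9 and 2524 for the B64 pair, again with no overlap between the lines. It rose 1.56-fold in B04, with an interval of 1.39 to 1.76 (adjusted p = 1.11e-11, DESeq2), and 1.79-fold in B64, with an interval of 1.59 to 2.02 (adjusted p = 1.10e-19, DESeq2). These calls held under all 17 alternatives run. Tapbp overlaps Zbtb22 by 3422 bases on the same strand. Before division by size factors, Zbtb22 had 895 and 980 expected counts for the parental pair. It had 993 and 928 for the B04 pair and 708 and 753 for the B64 pair. Zbtb22 was not called in either clone, with log2 fold changes of 0.06 in B04 and -0.15 in B64 (adjusted p = 0.76 and 0.412, DESeq2). The part of this overlap in the counts of Tapbp was not tested.

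Tapbpl encodes TAPBPR, a tapasin-related protein that edits peptides away from the transporter. Tapbpl had normalized counts of 378 and 388 for the parental pair of libraries, 545 and 580.2 for the B04 pair and 625 and 585 for the B64 pair. Both clones were above the parental line, with intervals of 1.22 to 1.77 around a 1.47-fold rise in B04 (adjusted p = 4.72e-04, DESeq2) and of 1.31 to 1.90 around a 1.58-fold rise in B64 (adjusted p = 3.34e-05, DESeq2). The whole gene lies opposite Vamp1. Expected counts of Vamp1 were 77 and 82 for the parental pair, 96 and 79 for the B04 pair and 111 and 119 for the B64 pair. In B64 its log2 fold change was 0.74, which did not pass the test (adjusted p = 0.0708, DESeq2). Whether counting used strand is not given in the sources used here, so reads of overlapping genes on opposite strands may not be separable.

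The 4 general chaperones of peptide loading did not rise with tapasin. All 4 fell in B04 with DESeq2, where 13.3% of all genes tested fell, and 3 fell with edgeR. The largest falls were those of Hspa5 (-0.44, SE 0.05, adjusted p = 4.50e-19, DESeq2) and Calr (-0.40, SE 0.05, adjusted p = 3.36e-12, DESeq2). These genes encode an endoplasmic reticulum chaperone and the lectin that supports newly folded class I molecules. The fall of Hspa5 was not seen per length. Its TPM was 947 and 897 for the parental pair, 768 and 1123 for the B04 pair and 1658 and 1314 for the B64 pair, and with effective length as an offset its log2 fold change in B04 was -0.04 (adjusted p = 0.955), while Calr kept its call at -0.43. In B64, 0 of the 4 passed the test with DESeq2 or edgeR, with 1 higher at an unadjusted p under 0.05, and their log2 fold changes ran from -0.09 to 0.11. Between the clones all 4 were higher in B64, by 0.14 to 0.55 on the log2 scale, where 13.6% of all genes tested were higher. The count was 3 with edgeR or the offset and 2 with fragment class as a term. Of 3 class I genes, a pair of heavy chain genes and B2m, 1 rose and 1 fell in B04 (H2-K1 by 0.26 with SE 0.09, B2m by -0.24 with SE 0.06). Of all genes tested, 11.5% rose and 13.3% fell there. All 3 rose in B64, where 9.11% of all genes tested rose, led by H2-K1 (0.75, SE 0.09) and H2-D1 (0.44, SE 0.06).

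Erap1 encodes the aminopeptidase that trims peptides in the endoplasmic reticulum to the length class I molecules hold, and it was the gene whose result depended most on how transcript length was treated. By normalized count it measured 841 and 816 for the parental pair of libraries, 995 and 916 for the B04 pair and 978 and 853 for the B64 pair. The clone libraries lay above the parental ones by little, and the log2 fold changes of 0.21 in B04 (95% interval -0.02 to 0.43, adjusted p = 0.188, DESeq2) and 0.14 in B64 (-0.08 to 0.37, adjusted p = 0.474, DESeq2) did not pass the test. Its TPM was 14.88 and 18.92 for the parental pair of libraries, 31.82 and 35.56 for the B04 pair and 32.12 and 24.13 for the B64 pair. The gap between the scales lay in the length that RSEM gave the gene, a mean over its isoforms weighted by their abundance, which was 3193 and 2405 bases in the parental libraries against 1918 and 1619 bases in B04 and 1833 and 2079 bases in B64. With effective length as an offset, Erap1 was called in both clones, with log2 fold changes of 0.92 in B04 and 0.69 in B64 (adjusted p = 1.41e-05 and 0.00286, DESeq2). Whether the isoforms of Erap1 differed between the lines was not tested. The 834-base overlap of Erap1 with Cast, a gene on the other strand with 3164 to 4287 expected counts, was not tested for its part in these estimates.

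Other peptidases that trim or destroy class I peptides did not rise. Of 6 such genes, 3 fell and 0 rose in B04, where 13.3% of all genes tested fell, led by Tpp2 (-0.41, SE 0.08, adjusted p = 8.66e-06), which encodes a large cytosolic tripeptidyl peptidase, and Nrdc (-0.26, SE 0.07, adjusted p = 0.00142). In B64, Tpp2 fell by 0.36 on the log2 scale (SE 0.08, adjusted p = 1.50e-04, DESeq2) and 0 of the 6 rose. Of all genes tested, 7.65% fell and 9.11% rose in B64. At an unadjusted p under 0.05 there were also 0 higher in either clone, as there were with edgeR. With effective length as an offset, 3 of the 6 stayed lower in B04 and 0 were lower in B64. The TPM of Tpp2 was 30.32 and 26.61 for the parental pair and 30.26 and 21.87 for the B64 pair, which overlap.

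Nlrc5 encodes the transactivator that binds class I promoters and drives several of the genes above, and it did not follow them in B04. Normalized counts of Nlrc5 were 299 and 291 for the parental pair of libraries, 235 and 246 for the B04 pair and 489 and 419.5 for the B64 pair. The 3 lines were in separate ranges, B04 below and B64 above the parental line. In B04 the fold was 0.82, with an interval of 0.65 to 1.03 that includes no change (adjusted p = 0.236, DESeq2). This direction turned on the TPM scale, on which Nlrc5 was 3.30 and 3.37 for the parental pair and 2.97 and 4.82 for the B04 pair, and RSEM gave B04 replicate B a length of 2995 bases against 4455 bases in replicate A. In B64 Nlrc5 rose 1.54-fold, with an interval of 1.23 to 1.94 (adjusted p = 0.00243, DESeq2). The call in B64 was lost without parental replicate A (adjusted p = 0.0691), parental replicate B (0.0749) or B64 replicate A (0.234).

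Among 9 other regulators of class I genes, 2 rose and 0 fell in B04, where 11.5% of all genes tested rose, and Irf1 had the larger rise. Irf1, an interferon-induced transcription factor, had normalized counts of 338 and 376 for the parental pair of libraries, 558 and 630.1 for the B04 pair and 410.0 and 386 for the B64 pair. It rose in B04 by 0.73 on the log2 scale (SE 0.15, adjusted p = 1.14e-05, DESeq2). In B64, 0 of the 9 passed the test. At an unadjusted p under 0.05, 2 were higher and 0 lower in B04 and 1 was higher and 0 lower in B64. The adjusted counts were the same with edgeR. With effective length as an offset, 2 of the 9 were called higher in B64 and 2 in B04, with 0 lower in either. With fragment class as a term, the calls in B64 among all these other genes of the route were 2, both of class I genes. In B04, that term left 1 of the 2 regulators called higher (Irf1, 0.65, adjusted p = 0.022, DESeq2). It left 1 of 3 core proteasome genes, 1 of 3 peptidases (Tpp2) and 3 of 4 chaperones called lower, 0 of the 2 activator calls, and of the class I genes B2m but not H2-K1.

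**Figure D4:**
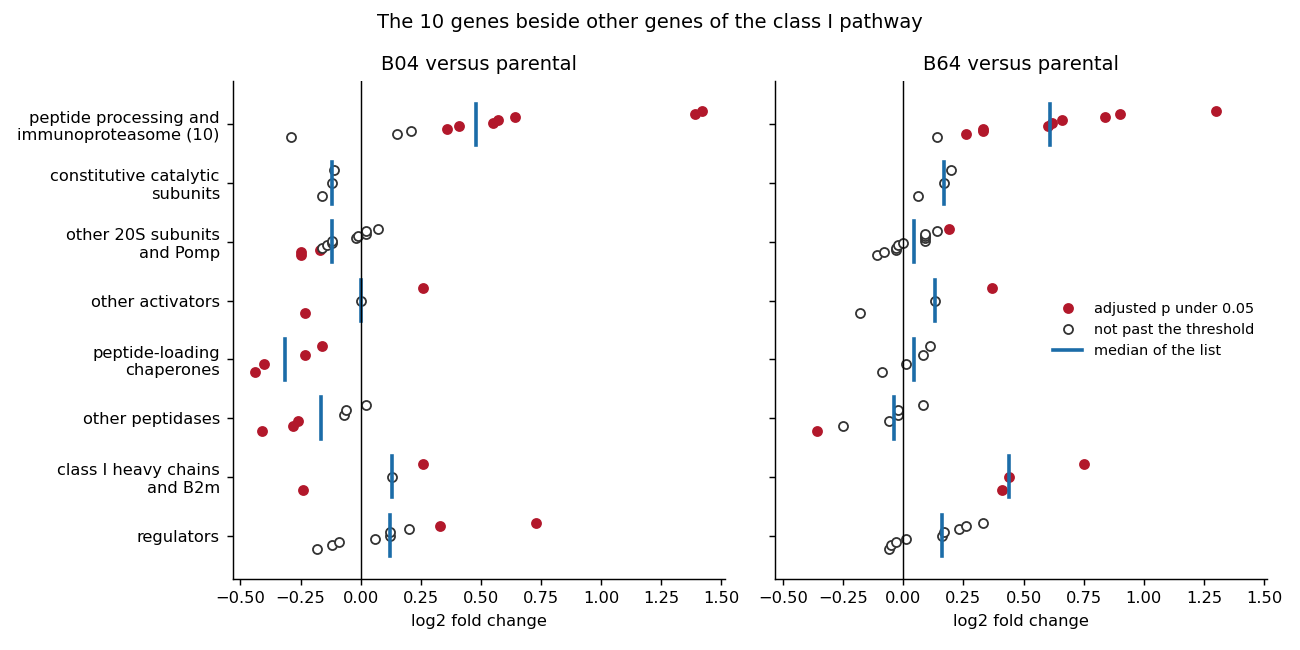
Log2 fold change against the parental line (x axis) of the 10 genes and of 7 lists of other genes of the class I route (y axis), in B04 and B64. Each point is a gene, filled where it passed the adjusted threshold, and blue lines are medians. The median of the 10 genes was 0.48 in B04, against -0.12 for the constitutive catalytic subunits and -0.32 for the peptide-loading chaperones.

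The clones were then compared with each other. Of the 10 genes, 1 was higher and 2 were lower in B64 than in B04, where 13.6% of the 12538 genes tested were higher and 11.4% lower, and the libraries did not overlap for 7 genes, close to the 67.8% of all genes tested. The median log2 difference was 0.02, against 0.00 over all genes tested. The Nlrc5 level of B64 exceeded that of B04 by 0.92 (SE 0.17, adjusted p = 1.30e-06, DESeq2). Psmb8 differed by -0.48 (SE 0.15, adjusted p = 0.0083) and Tap2 by -0.31 (SE 0.08, adjusted p = 3.46e-04), both lower in B64. The call for Psmb8 was lost when any of the 4 clone libraries was left out, with differences of -0.53 to -0.44 (adjusted p = 0.0947 to 0.178). For the other 7 genes the intervals of the log2 difference lay between -0.53 and 0.44, so larger differences lie outside the interval of each. Tap1, Tapbp and Psme1 were close to the threshold (adjusted p = 0.0552, 0.0718 and 0.062), and edgeR called all 3 higher in B64. Of the regulators, Irf1 was lower in B64, with a log2 difference of -0.58 (SE 0.15, adjusted p = 8.57e-04). Among libraries with short fragments only, B64 minus B04 replicate B gave log2 differences of 0.88 for Nlrc5, -0.53 for Psmb8 and -0.30 for Tap2. The short class holds 1 B04 library, so these differences were not tested. With fragment class as a term, Nlrc5 and Tap2 kept their calls and Psmb8 lost its call (adjusted p = 0.1, DESeq2).

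Within the long-fragment class, B04 replicate A could be set beside both parental libraries. There the median log2 difference of the 10 genes was 0.46, with 1.34 for Psmb8, 1.31 for Psmb9, 0.73 for Tapbp and 0.58 for Tap2. Nlrc5 was again the only gene below 0, at -0.32. With a single B04 library in this class, these differences were given without a test.

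Compared per length, Psme1 was the most abundant of the 10 transcripts in every line, with 136 ± 0.51 TPM in the parental line, 157 ± 5.35 in B04 and 169.9 ± 5.32 in B64 (SD, n = 2). Psmb10 was next, with 72.2 ± 0.08, 85.8 ± 0.32 and 76.7 ± 5.02 TPM. In the parental line Tap2, Tapbp, Tap1, Erap1, Psmb8, Tapbpl, Psmb9 and Nlrc5 followed in that order, from 39.2 ± 0.13 TPM for Tap2 down to 3.34 ± 0.05 for Nlrc5, and no neighbours in the order overlapped. Psmb8 stood in place 7 in the parental line and place 6 in B04, where it overlapped Erap1, and Psmb9 and Tapbpl overlapped there too. In B64, Tapbp stood above Tap2, and Tap1 and Erap1 overlapped. Nlrc5 was last in all 3 lines.

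Genes next to the 10 were counted to place them in their surroundings. Within 250 kb of the 5 genes on chromosome 17, 28 other genes were tested, of which 4 rose and 1 fell in B04, and 2 rose and 1 fell in B64. That is 14.3% higher in B04 and 7.1% in B64, against 11.5% and 9.11% of all genes tested. Around all 10 genes together, 14 of 100 neighbours rose and 6 fell in B04, and 7 rose and 6 fell in B64. H2-K1, a class I heavy chain gene, was among the chromosome 17 neighbours that rose in both clones.

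**Figure D5:**
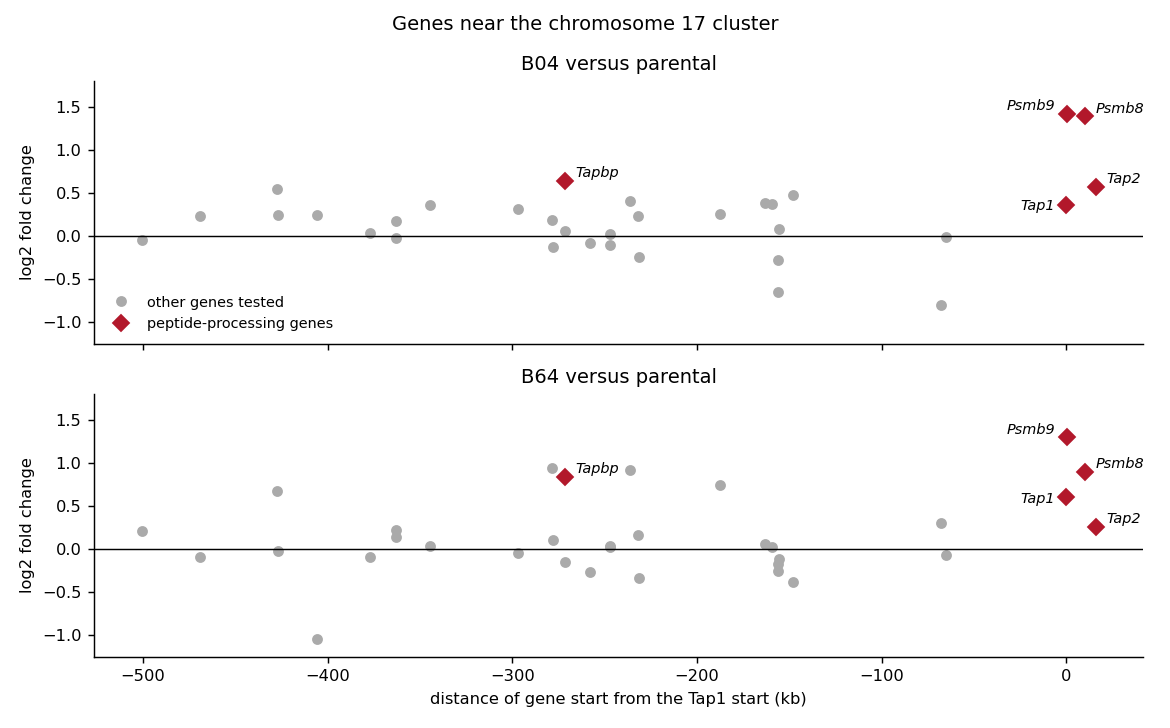
Log2 fold change against the parental line (y axis) of genes tested near the chromosome 17 cluster, by the distance of their start from that of Tap1 (x axis, kb), in B04 and B64. Red diamonds are the peptide-processing genes and grey points other genes. Psmb9 and Psmb8 stand highest in B04 (1.42 and 1.39), and no other tested gene started within the cluster or beyond Tap2 in the window.

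The genes whose pattern over the 6 libraries lay closest to the mean pattern of the 10 genes were Pfkm, Srxn1, Bnip3l, Pla2g7 and Acyp1. The measure was the root mean square distance between centred log2 profiles, over the 9878 genes whose normalized counts averaged 100 or more, and it was 0.039 to 0.053 for these 5 genes against a median of 0.308. On the log2 scale, the mean pattern stood at -0.37 and -0.38 for the parental pair, 0.16 and 0.16 for the B04 pair and 0.25 and 0.19 for the B64 pair. Of the 10 genes, Tapbpl lay at 0.04, Tap1 at 0.111 and Tapbp at 0.122, while Psmb8 lay at 0.35 and Psmb9 and Nlrc5 at 0.40, farther than the median gene. Psmb8 and Psmb9 departed from the mean by the size of their rise and Nlrc5 by its low level in B04.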

How the data were processed

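The authors sequenced oligo(dT)-enriched libraries as read pairs, and the study's methods name STAR on mm10 for alignment and RSEM for quantification. The RSEM version and the annotation are not given in the sources used here. The deposited tables hold expected counts, which RSEM estimates by dividing shared reads among genes and isoforms and which need not be whole. They also hold TPM, in which the authors' run of RSEM corrected for effective length and library total. FPKM was not used. The reference is not of the Balb/c strain, and the effect on genes of the major histocompatibility complex was not tested.

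Of 53801 identifiers, 53620 (99.7%) matched a GENCODE M21 symbol. Expected counts were rounded and fitted with DESeq2 1.42.0 (R 4.3.3) over all 6 libraries with line as the only term. Wald p-values were adjusted over all genes tested by Benjamini-Hochberg, and genes were called at an adjusted p under 0.05. Log2 fold changes are unshrunken, and intervals are at 95%. The script was tested on simulated data. Groups came from the sample titles, which also give replicate letters. Alternatives included edgeR 4.0.16, limma 3.58.1 on log2(TPM + 1), a replicate block and leaving out each library. All 10 genes are named, together with at most 2 called genes of each related list in a comparison, beside Psmb5, Psmb6, Psmb7, Psme2 and Irf1. Related genes whose call changed with the replicate block are named as well. A regulator and a cell type marker of these lists are not reported here. The genes and lists were chosen with earlier results of these data known.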

Additional observations from a re-analysis of the deposited data

Results flagged for a closer look

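For 3 of the 10 genes the change against the parental line differed between the clones by a test of the difference itself (DESeq2, B64 against B04). Nlrc5 was higher in B64 by 0.92 on the log2 scale, where B64 lay above and B04 below the parental libraries. Psmb8 differed by -0.48 and Tap2 by -0.31, with all clone libraries above the parental ones for both genes and B04 above B64. The difference in Tap2 passed the threshold under all 17 alternatives, that in Nlrc5 under all but the limma fits on TPM, and that in Psmb8 was lost in 6 of them.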

How the results depend on the processing

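Over 17 alternatives, 444 single-gene values kept their direction and side of the threshold, 48 lost the call, 12 gained it and 6 changed sign. With a replicate block, Psmb10 lost its call in B64 (0.33, adjusted p = 0.116) and no other call of the 10 genes changed. Among the related genes, Psma3, Canx and Nfyb in B04 and Pdia3, Rfx5 and Nfyb between the clones lost theirs with the block, and Psmb5 in B64 gained one. The letters did not pair the libraries: deviations correlated at 0.16 between parental and each clone and at -0.05 between the clones, across 9878 genes, so the block result is given here alone.

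The median log2 fold change in B04 was 0.61 with the effective-length offset, 0.65 and 0.68 with limma on log2(TPM + 1) and log2(TPM + 0.1), 0.46 with fragment class as a term, and 0.46 to 0.49 leaving out 1 library. In B64 it was 0.66, 0.66, 0.70 and 0.56, and 0.56 to 0.63 leaving out 1 library. Between the clones it was -0.01 with the offset, -0.05 with either limma fit, and 0.02 to 0.09 leaving out 1 library. The count of genes called in B64 was 2 with fragment class as a term and 5 to 8 leaving out 1 library. Calls in B04 ranged from 5 to 7 leaving out 1 library and were 8 with edgeR. Between the clones edgeR called 6, and leaving out 1 library gave 2 to 3. Nlrc5 in B04 turned to 0.13 with the offset and to 0.15 and 0.18 with limma. Between the clones, leaving out 1 library gave -0.29 to 0.04 for Psmb9, -0.18 to 0.02 for Psmb10 and -0.16 to 0.03 for Erap1. Over all genes, percent called in B64 against parental was 16.8 in the fit reported and 2.63 with fragment class as a term, which leaves that comparison to the B04 libraries for the class effect. The causes of these changes were not tested. Psmb9 had 103 to 304 expected counts a library and the largest SE of the 10 genes (0.22), and the part of depth in its values was not tested.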
